A study of Mus musculus with 12 samples.

Results

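Granulocytes, the stage at which the neutrophil lineage ends, were set against LSK cells, the stem and early progenitor population from which it starts. The comparison took the 3 arrays titled as granulocytes minus the 3 arrays titled as LSK cells, of 12 arrays in the series. It was made on the array rows that carry exactly 1 gene symbol, with the row of highest mean over the 12 arrays standing for a gene, which left 19937 genes from 34760 rows. All cells were sorted directly from the bone marrow of untreated C57BL/6 mice, so the populations differ in stage and in sort and share strain, tissue and treatment. LSK cells had been depleted with antibodies to B220, Ter119, CD3, Gr-1 and CD11b and sorted for Sca1 and cKit, whereas granulocytes had been sorted with Gr-1, cKit, CD34 and CD16/32 after exclusion of Sca1 and of lymphocyte antigens, B220 and CD3 among them. Promyelocytes and myelocytes, the stages in between, were on 3 arrays each and are used here for the course between the ends and for the estimate of spread. By their titles, arrays with the same stage are biological replicates. The labels do not give the age or the sex of the mice, nor whether these arrays came from separate animals.

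LSK cells hold the stem cells and cycling multipotent progenitors of the marrow, make ribosomes and carry messages of several lineages, and they supply all blood cells. Along the granulocytic lineage, cells fill primary granules as promyelocytes and secondary granules as myelocytes, then stop dividing, and the mature cell carries receptors, an oxidase and motile machinery ready for use. The neutrophil is a short-lived cell with little new synthesis of ribosomes and a lobed nucleus.

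Of the 19937 genes, 1912 (9.59%) were called higher in granulocytes and 3293 (16.5%) lower, together 26.1%, where a call needs a Benjamini-Hochberg adjusted p under 0.05 in limma and a fold of at least 2. These percentages are the background against which the gene lists below are read. Values are log2 RMA signals, the authors' normalised scale. Differences are granulocytes minus LSK cells on that scale, each followed by ± its standard error, from 3 arrays in each group. The median difference over all genes was 0.17. With every array centred on its 75th percentile, the median was 0.39 and the calls were 2440 higher and 2781 lower, so that increases made up 46.7% of calls instead of 36.7%, and list counts below are relative to these shifts. The p-values measure the spread between these arrays. Of all genes, 12365 (62%) had the 3 arrays of one group above the 3 of the other in either direction, as did 1910 of the genes called higher and 3288 of those called lower. On the deposited scale decreases were more numerous and the largest increases exceeded the largest decreases, as the scatter of the group means shows. A fold of at least 4, dim genes included, was reached by 767 increases and 1343 decreases, of at least 16 by 177 and 96, and of at least 64 by 40 and 4. Arrays of one group correlated across genes, which are not independent replicates, at 0.985 to 0.987 in LSK cells and at 0.987 to 0.991 in granulocytes, and arrays of different groups at 0.807 to 0.839. A signal at or under 4.51, the 95th percentile of 1192 olfactory and vomeronasal receptor genes, is called dim in what follows, and no fold is given where the mean of a group was dim. The same amount of RNA was labelled for every array, so fewer cells of a type and less RNA per cell cannot be told apart.

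**Figure D1:**
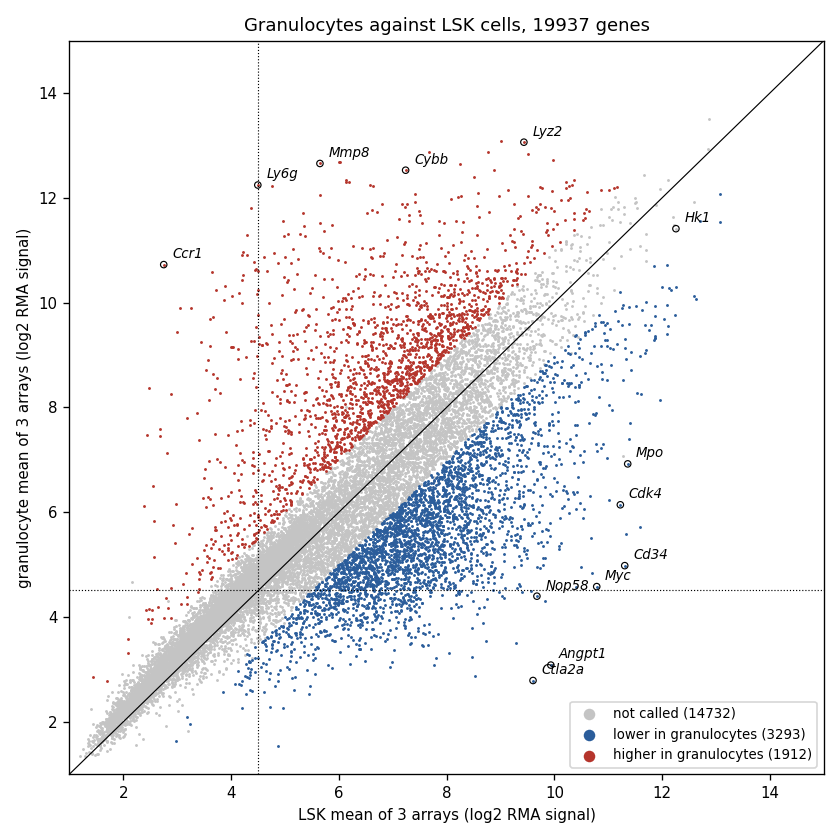
Each point is 1 of 19937 genes, placed by its mean over 3 LSK arrays (horizontal axis) and over 3 granulocyte arrays (vertical axis), both in log2 RMA signal, with colour for the call and dotted lines at the dim level of 4.51. The red points, 1912 genes called higher, reach farther from the diagonal than the blue points, 3293 genes called lower, although there are fewer of them.

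The markers of both ends followed the labels. All 10 neutrophil markers rose, with a median difference of 5.68, and all 8 measured LSK markers fell, with a median of -3.82. Of 10 measured sort antigens, 6 were higher and 2 lower. Ly6g, which carries the Gr-1 epitope used for the sort, stood at 4.78, 4.07 and 4.64 on the LSK arrays and 12.41, 12.33 and 11.99 on the granulocyte arrays, and Itgam, the gene of CD11b, at 7.16, 7.28 and 7.34 on the LSK arrays and 11.92, 11.83 and 11.92 on the granulocyte arrays. Kit stood at 10.77, 10.64 and 10.88 on the LSK arrays and 6.94, 7.45 and 7.48 on the granulocyte arrays, and Cd34 at 11.46, 11.17 and 11.29 on the LSK arrays and 5.34, 4.78 and 4.82 on the granulocyte arrays. The groups did not overlap for any of these 4 genes, which the sort itself had used, so their differences of 7.75, 4.63, -3.47 and -6.33 are a check and not a result. The genes of CD16/32, Fcgr3 (4.02 ± 0.41) and Fcgr2b (1.13 ± 0.27), were higher too, the latter not without LSK array 3 (0.85, adjusted p = 0.0147), and Ptprc, the gene of which B220 is a form, rose by 2.17 ± 0.14. The CD3 chains, which served for exclusion, were near the dim level, with Cd3e at 0.45 (adjusted p = 0.0192) and Cd3g at 0.83 (adjusted p = 0.0123), both under a fold of 2. Cd3g passed both limits without LSK array 3 (1.02, adjusted p = 0.00584) or without granulocyte array 1 (1.06, adjusted p = 0.00378), and Cd3d rose by 1.92 ± 0.18, from a dim 4.03 to 5.95.

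Markers of other cells were in part above the dim level. In LSK cells and granulocytes these were 5 and 5 of 5 erythroid, 9 and 11 of 12 monocyte and macrophage, and 9 and 9 of 11 dendritic cell markers. Of 10 T and NK cell markers they were 5 and 6. Of 5 erythroid markers, 1 was called, the anion exchanger Slc4a1 (1.44 ± 0.41, adjusted p = 0.00801), which was not called without granulocyte array 3 (0.87, adjusted p = 0.0452). Its granulocyte arrays stood at 6.38, 6.79 and 8.29. Alas2 (0.48) was called higher without LSK array 2 (1.07, adjusted p = 0.0189). Of 10 B cell markers, 5 fell (3 without LSK array 2), and the summed list had a mean level of 5.25 to 5.96 on LSK arrays and 4.62 to 4.75 on granulocyte arrays. Of 12 monocyte and macrophage markers, 2 rose, Csf1r, the receptor of macrophage colony-stimulating factor (2.65 ± 0.36), and Adgre1, the gene of F4/80 (3.50 ± 0.29, from a dim LSK level), and 3 fell. Among those that fell, F13a1 was not called without LSK array 1 (-1.44, adjusted p = 0.0605), LSK array 2 (-1.25, adjusted p = 0.0642) or granulocyte array 3 (-1.40, adjusted p = 0.0620). Ms4a6c was not called without granulocyte array 1 (-1.18, adjusted p = 0.0591). The count of increases in this list was 4 without granulocyte array 1 and 5 without granulocyte array 3, and its mean level lay at 5.31 to 6.13 on LSK arrays and 5.85 to 6.58 on granulocyte arrays. Of 10 T and NK cell markers, Cd3d rose and Nkg7, a granule protein (-3.97 ± 0.31), and Il7r fell, with 2 called higher without LSK array 3 or without granulocyte array 1. Of 6 plasma cell markers, Jchain fell (-2.30 ± 0.50, to a dim 4.27) and no other was called. Of 10 stromal and endothelial markers, Pdgfrb fell (-2.52 ± 0.23), and Bgn was called lower only without LSK array 2 (-1.03, adjusted p = 0.000467) or without granulocyte array 2 (-1.01, adjusted p = 0.000788). Of 6 megakaryocyte markers, 3 fell, and of 11 dendritic cell markers 4 fell and 2 rose, Itgax (1.84 ± 0.23) and Clec9a (1.16 ± 0.26, from a dim level). What part such cells had in the differences described here was not tested.

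1 array stood apart in 2 gene groups. LSK array 3 was below LSK arrays 1 and 2 for the primary granule genes, with Elane at 10.54, 11.54 and 8.66 and Ctsg at 10.93, 11.40 and 8.09 on LSK arrays 1, 2 and 3, and for immediate early genes, with Fosb at 11.10, 11.03 and 8.63 and Nr4a1 at 11.01, 11.19 and 9.14. Without it, 1913 genes were called higher and 3321 lower, and values without it are given below for the named genes whose call rests on it.

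The 15 largest increases included a chemokine receptor, 2 metalloproteases and the sort antigen Ly6g. Ccr1, a chemokine receptor, stood at 2.96, 2.65 and 2.64 on the LSK arrays and 10.73, 10.87 and 10.57 on the granulocyte arrays, a difference of 7.97 ± 0.23 (adjusted p = 1.02e-12) from a dim level. Mmp8, the neutrophil collagenase, stood at 5.22, 5.65 and 6.08 on the LSK arrays and 12.67, 12.79 and 12.50 on the granulocyte arrays, a rise of 7.00 ± 0.24 or 128-fold (adjusted p = 4.46e-12). Mmp9, gelatinase B, stood at 5.56, 6.33 and 6.17 on the LSK arrays and 12.74, 12.57 and 12.73 on the granulocyte arrays, a rise of 6.66 ± 0.22 or 101-fold. Retnlg, a resistin-like protein, was at 5.93, 5.92 and 6.16 on the LSK arrays and 12.83, 12.64 and 12.59 on the granulocyte arrays, 103-fold higher. No array of one group came within 4 log2 units of the other group for these genes. The 15 also held 2 Schlafen genes, Slfn4 (7.46 ± 0.20) and Slfn1 (6.99 ± 0.19). Beside them were the interleukin 36 gamma gene Il1f9 (7.43 ± 0.19), the retinol dehydrogenase Dhrs9 (6.94 ± 0.19), the Ly49 receptor Klra2 (6.84 ± 0.19), the carcinoembryonic antigen family member Ceacam10 (6.73 ± 0.16) and the platelet-activating factor hydrolase Pla2g7 (6.60 ± 0.32). Of these, Slfn4 alone was above the dim level in LSK cells, at 4.77. Scrg1 (6.63 ± 0.21) and the noncoding Mirt2 (6.70 ± 0.18), both from dim signal, and the mast cell-expressed membrane protein Mcemp1 (6.59 ± 0.23) completed the 15 with Ly6g.

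The 15 largest decreases included Angpt1, the progenitor surface genes Cd34 and Flt3, and Myc. Angpt1, the ligand of the Tie2 receptor, stood at 10.25, 9.61 and 9.95 on the LSK arrays and 3.14, 3.04 and 3.07 on the granulocyte arrays, a fall to dim signal of 6.85 ± 0.50 (adjusted p = 1.14e-08). Ctla2a, an inhibitor of cysteine proteases, stood at 10.14, 9.34 and 9.34 on the LSK arrays and 2.57, 2.53 and 3.27 on the granulocyte arrays, a fall to dim signal of 6.82 ± 0.36. Myc, the growth-promoting transcription factor, stood at 10.46, 10.76 and 11.14 on the LSK arrays and 4.39, 4.82 and 4.53 on the granulocyte arrays, and fell by 6.21 ± 0.26 or 73.8-fold (adjusted p = 2.70e-11). Flt3, the cytokine receptor of multipotent progenitors, stood at 10.59, 10.57 and 10.91 on the LSK arrays and 4.87, 4.79 and 4.89 on the granulocyte arrays, 57.3-fold lower. The LSK arrays of these 4 genes all lay above all granulocyte arrays by over 4 log2 units. The adhesion G protein-coupled receptors Adgrg1 (-5.86 ± 0.37) and Adgrl4 (-5.75 ± 0.30), the homeobox factor Meis1 (-5.82 ± 0.27) and the terminal transferase Dntt (-5.78 ± 0.16, to a dim 3.51) were also among the 15. Stxbp4 (-5.66 ± 0.27), the G protein regulator Rgs1 (-5.52 ± 0.46), the nucleolar protein Nop58 (-5.28 ± 0.20), Myct1 (-5.23 ± 0.39), the proliferation-associated Pa2g4 (-5.18 ± 0.16) and the cyclin-dependent kinase Cdk4 (-5.08 ± 0.22) closed the 15, the first 4 of them to dim signal.

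**Figure D2:**
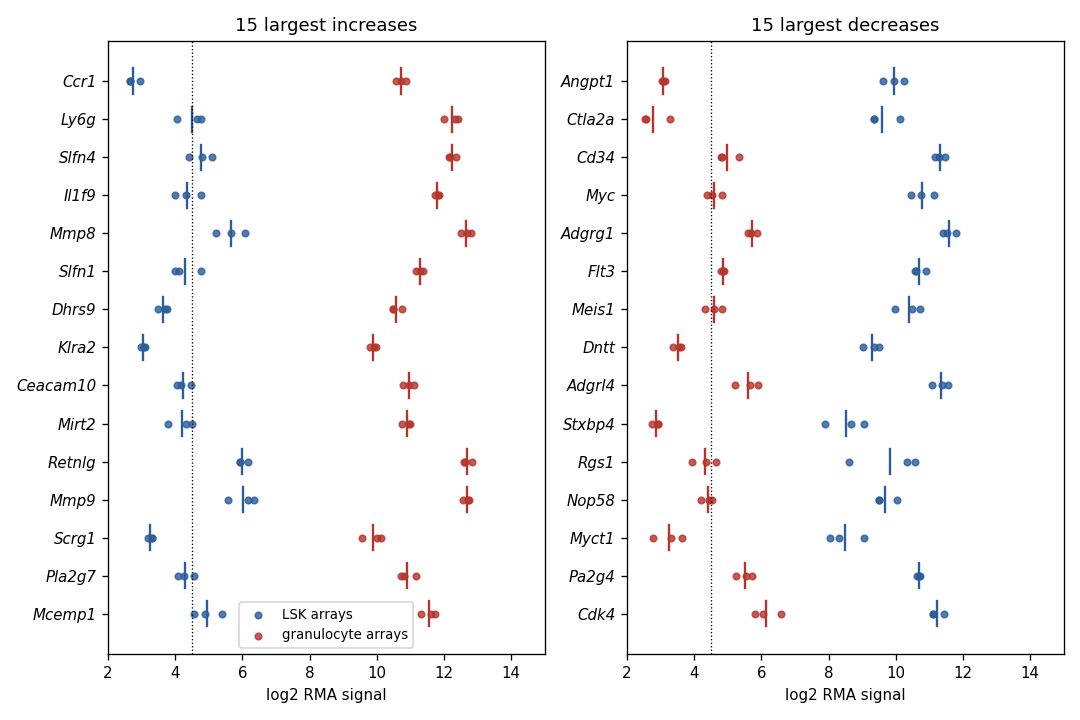
Dots give the log2 RMA signal of single arrays (blue for 3 LSK arrays, red for 3 granulocyte arrays) and short bars the group means for the 15 largest increases (left) and the 15 largest decreases (right), with a dotted line at the dim level of 4.51. The groups are separate for every gene, and the LSK means of most increases lie at or near the dotted line.

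The promoters of members that moved together are shown for 3 groups, because the letters of a binding motif were more frequent in their windows than in all windows. The genes shown were chosen from each list for holding those letters, after their values were seen. Windows of 250 bases before to 50 after the start were taken from RefSeq (GRCm38.p6) for 15562 of the 19937 genes, with the first listed window where a gene had several, and searched on both strands. The C/EBP letters TTGCNNAA were in 5 of 12 windows of secondary granule genes (41.7%) and in 9.68% of all windows. The CHR element TTTGAA was in 31 of 39 windows of mitosis genes (79.5%) and in 15.2% of all, and the NF-Y box CCAAT in 71.8% against 38.3%. The E2F letters TTTCGCGC, TTTGGCGC or TTTCCCGC were in 12 of 35 windows of replication genes (34.3%) and in 2.67% of all. Over whole classes, E2F letters were in 5.52% of windows of genes called lower and 1.43% of those called higher, and the PU.1 letters GAGGAAGT in 2.59% and 4.75%. The PU.1 letters were in 2.74% of all windows and, by list, in 0.0% to 16.7% (2 of 12 secondary granule windows). The E-box CACGTG of Myc and Max was in 8.4% of all windows, 12.0% of those called lower and 10.0% of those called higher. By list its share ran from 4.0% (stem cell transcription factors) to 21.9% (7 of 32 ribosome biogenesis windows). Among genes called lower, the CHR element was in 14.1% and the NF-Y box in 40.9%. Among genes called higher, the CHR element was in 9.9% and C/EBP letters were in 10.7%. The NF-Y box was also in 58.3% of secondary granule windows and 57.1% of replication windows. A match of letters is a description and does not show that a factor was bound.

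Secondary granule genes with C/EBP letters in capitals, a site type read by the C/EBP factors of myeloid cells, are given 5′ to 3′ on the strand of the gene.
Ltf (chr9:111019205-111019236, + strand): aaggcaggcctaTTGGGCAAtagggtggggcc
Lcn2 (chr2:32387936-32387967, - strand): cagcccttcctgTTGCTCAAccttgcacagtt
Mmp8 (chr9:7558398-7558429, + strand): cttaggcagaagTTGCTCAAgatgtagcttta

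Mitosis genes with CCAAT (or its complement ATTGG) and TTTGAA (or TTCAAA) in capitals, the pair of boxes known from cell cycle promoters, are these.
Cdk1 (chr10:69352910-69353004, - strand): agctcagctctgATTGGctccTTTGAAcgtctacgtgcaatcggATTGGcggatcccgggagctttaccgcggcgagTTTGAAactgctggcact
Ccnb2 (chr9:70421533-70421653, - strand): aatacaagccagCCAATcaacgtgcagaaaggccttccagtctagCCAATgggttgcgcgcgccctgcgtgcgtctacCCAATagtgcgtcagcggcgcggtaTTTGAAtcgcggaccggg
Kif11 (chr19:37376325-37376380, + strand): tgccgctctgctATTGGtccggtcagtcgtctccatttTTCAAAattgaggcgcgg
Top2a (chr11:99024195-99024299, - strand): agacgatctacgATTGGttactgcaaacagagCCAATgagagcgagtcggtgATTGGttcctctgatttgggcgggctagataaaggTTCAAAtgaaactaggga

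Replication genes with E2F letters in capitals follow; in Mcm5 and Mcm6 a site on one strand overlaps a site on the other.
Mcm5 (chr8:75109344-75109379, + strand): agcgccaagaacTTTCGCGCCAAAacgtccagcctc
Mcm6 (chr1:128359733-128359827, - strand): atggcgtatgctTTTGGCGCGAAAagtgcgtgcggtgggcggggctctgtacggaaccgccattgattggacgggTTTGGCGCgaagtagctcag
Pola1 (chrX:93632274-93632305, - strand): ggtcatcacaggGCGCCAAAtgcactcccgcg

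Among the gene lists, which were fixed with earlier results of these data known, 13 of 52 had a majority of their measured members called higher and 18 had a majority called lower. The 13 include the sort antigens, which are a check, and the 18 include the study's targets, a list chosen on these samples. The bars of called members per list show the spread, from the secondary granule list, where every member rose, to the mitosis list, where 44 of 46 fell.

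**Figure D3:**
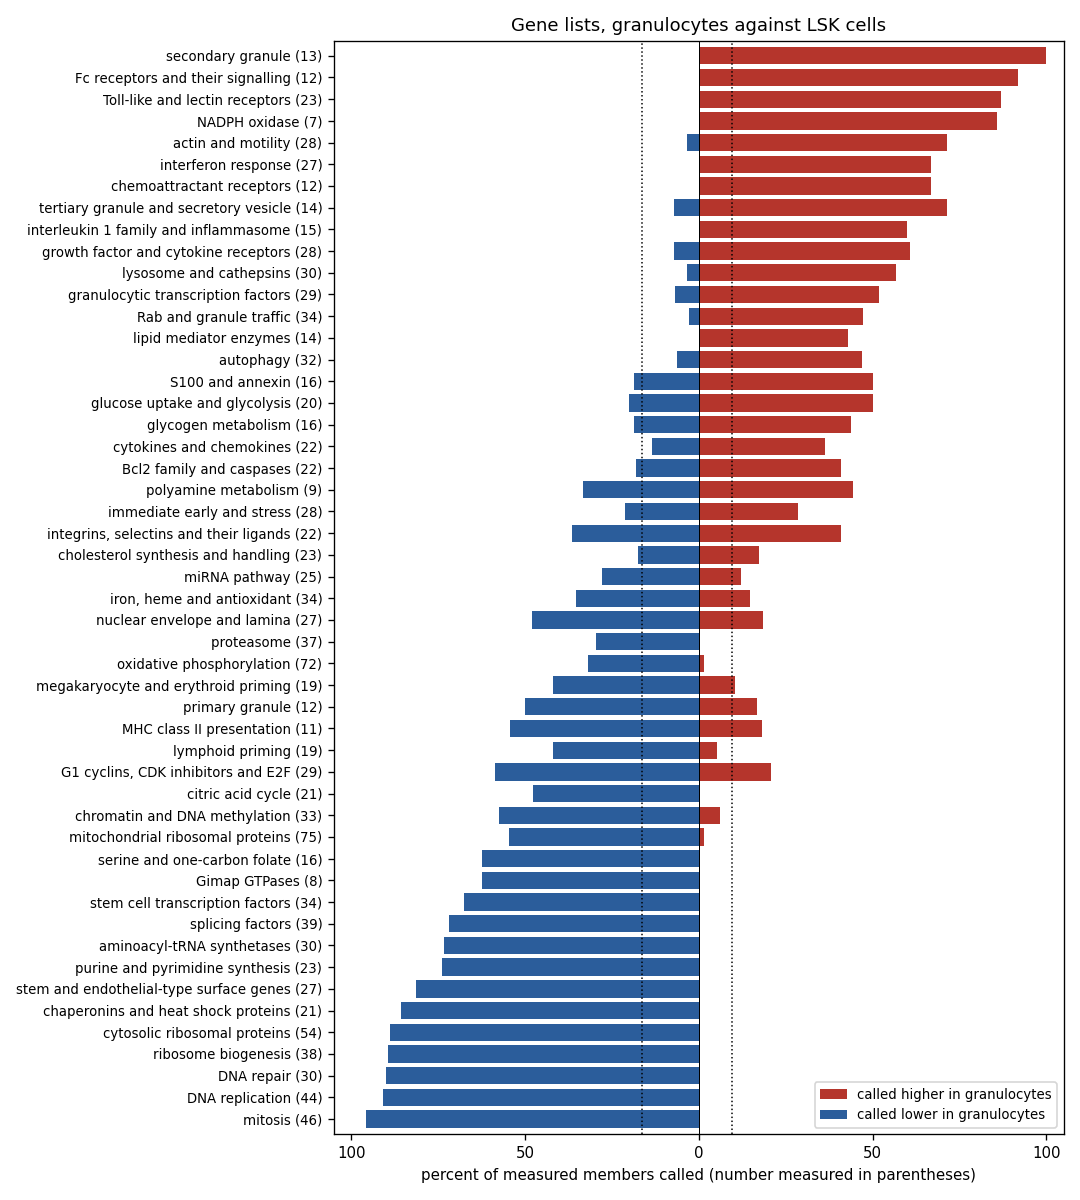
Bars give the percent of measured members of each gene list, other than the sort antigens and the study's targets, called higher (red, right) or lower (blue, left) in granulocytes, starting at 0, with dotted lines at the background of all genes, 9.59% higher and 16.5% lower. Effector, receptor and motility lists sit at the top with red bars past the background, and cell cycle, ribosome and chaperonin lists at the bottom with blue bars alone.

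Granule genes split by granule type. All 13 secondary granule genes rose (9.59% of all genes did), with differences from 3.08 to 7.00 and a median of 5.19. Ltf, lactoferrin, stood at 7.70, 7.44 and 7.88 on the LSK arrays and 12.94, 12.86 and 12.82 on the granulocyte arrays, 36.7-fold higher, and Camp, the cathelicidin, at 6.87, 6.83 and 6.72 on the LSK arrays and 12.32, 12.17 and 11.17 on the granulocyte arrays, 33.8-fold higher (adjusted p = 8.05e-11 and 5.69e-08). Lcn2 (4.09 ± 0.21) and Ngp (3.33 ± 0.34) started from higher LSK levels of 9.00 and 9.52, and Chil1, a chitinase-like protein, and Olfm4, olfactomedin 4, rose by 6.41 ± 0.16 and 6.18 ± 0.20, the latter from dim signal. Of 14 genes of tertiary granules and secretory vesicles, 10 rose, led after Mmp9 by the arginase Arg2 (6.07 ± 0.21, from a dim 3.62), the membrane-bound protease Mmp25 (65.3-fold) and the sheddase Adam8 (59.9-fold). The aminopeptidase Anpep fell by 1.14 ± 0.27 to dim signal, a call lost without LSK array 3 (-0.81, adjusted p = 0.0126).

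Of primary granule genes, 6 of 12 were lower (16.5% of all genes were) and 2 higher. Mpo, myeloperoxidase, stood at 11.62, 11.99 and 10.47 on the LSK arrays and 7.27, 7.50 and 5.99 on the granulocyte arrays, 21.7-fold lower (adjusted p = 5.80e-08), and Elane, neutrophil elastase, at 10.54, 11.54 and 8.66 on the LSK arrays and 6.55, 6.93 and 5.26 on the granulocyte arrays, 16.0-fold lower. Prtn3, proteinase 3 (-3.64 ± 0.38), and Ctsg, cathepsin G (-4.06 ± 0.63), fell as well. The granulocyte arrays lay below the LSK arrays for all 4, and none of the 4 calls was lost when any array was left out. The promyelocyte means were higher still, at 12.60 for Mpo and 11.77 for Elane. The 2 members called higher were the lysozyme Lyz2, at 9.05 to 9.99 on the LSK arrays and 12.94 to 13.24 on the granulocyte arrays (12.4-fold), and the tetraspanin Cd63 (1.15 ± 0.21).

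The oxidase that makes superoxide rose as a set, with 6 of 7 subunits and partners called. Cybb, the catalytic gp91phox subunit, stood at 7.44, 7.45 and 6.83 on the LSK arrays and 12.42, 12.46 and 12.70 on the granulocyte arrays, 39.0-fold higher (adjusted p = 1.02e-10). Its membrane partner Cyba rose by 3.23 ± 0.19, and the cytosolic subunits Ncf1 and Ncf4 by 3.51 ± 0.17 and 3.47 ± 0.19. The member not called, named after its value was seen, was Rac1, a GTPase present in most cells (0.34).

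Receptors that sense chemoattractants, antibodies and microbes rose together. Of 12 chemoattractant receptors, 8 were higher and none lower. Cxcr2, the receptor of the Cxcl chemokines that call neutrophils, stood at 5.78, 6.43 and 6.20 on the LSK arrays and 12.42, 12.29 and 12.20 on the granulocyte arrays, 72.0-fold higher (adjusted p = 9.54e-11). The complement C5a receptors C5ar1 and C5ar2 rose by 6.31 ± 0.15 (from a dim 4.22) and 3.93 ± 0.17. Of 12 genes in a list of Fc receptors, paired immunoglobulin-like receptors and signalling partners, 11 were higher. The Fc receptor Fcgr4 rose by 6.23 ± 0.20 from a dim level and the Src-family kinase Fgr by 5.87 ± 0.16. The paired receptor Pilra rose by 6.29 ± 0.18 (78.5-fold) and the inhibitory Lilrb4a by 6.12 ± 0.17. The exception was Fcgr1, the high-affinity IgG receptor, at 0.69 (adjusted p = 0.0149). Of 23 Toll-like and lectin receptors, 20 rose. Tlr4, the lipopolysaccharide receptor, stood at 5.44, 4.80 and 5.33 on the LSK arrays and 8.10, 8.26 and 8.35 on the granulocyte arrays, 8.27-fold higher, and Tlr2, which senses lipoproteins, rose by 3.36 ± 0.22. Tlr13, a sensor of bacterial ribosomal RNA, rose by 6.51 ± 0.22 from dim signal, Clec4d by 6.24 ± 0.20, Trem1 by 5.63 ± 0.32 and Clec5a by 5.61 ± 0.39. Tlr1 was dim in both groups, as was Tlr3, which senses double-stranded RNA.

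Adhesion genes exchanged members. Of 22 integrins, selectins and their ligands, 9 rose and 8 fell, and the list's median of 0.12 turned to -0.20 with another choice of rows. Those that rose were led by the beta-2 integrins, with Itgb2 at 7.45, 7.62 and 7.20 on the LSK arrays and 12.05, 12.05 and 12.12 on the granulocyte arrays, 25.1-fold higher, its paralog Itgb2l at 5.41 ± 0.18, and the CD11b gene Itgam. Ceacam1 rose by 4.45 ± 0.19 and Selplg, the P-selectin ligand, by 1.89 ± 0.18. Those that fell were the beta-1 integrin Itgb1 (-1.88 ± 0.18), its partners Itga6 (-1.88 ± 0.19), Itga9 (-1.41 ± 0.17) and Itga4 (-1.03 ± 0.20), the platelet integrin Itga2b (-1.43 ± 0.38), and the junction genes Pecam1 (-1.85 ± 0.32), Icam2 (-1.11 ± 0.16) and Esam (-1.49 ± 0.20). Itgb1 stood at 9.45, 8.97 and 9.19 on the LSK arrays and 7.00, 7.38 and 7.60 on the granulocyte arrays, without overlap. The call of Itga4 was lost without LSK array 1 (-0.93, adjusted p = 0.00289) or without granulocyte array 2 (-0.87, adjusted p = 0.00316).

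Of 15 interleukin 1 family and inflammasome genes, 9 rose. Il1b, the secreted cytokine, stood at 4.70, 4.61 and 4.05 on the LSK arrays and 10.65, 10.53 and 10.67 on the granulocyte arrays, a difference of 6.16 ± 0.17 from dim signal. Both its antagonist Il1rn (4.85 ± 0.21, from dim signal) and its decoy receptor Il1r2 (5.37 ± 0.18, 41.3-fold) rose, whereas Il1a was dim in both groups. None of the list was called lower, and 1 member was when LSK array 2 or LSK array 3 was left out. Of 22 cytokines and chemokines, 8 rose and 3 fell. The chemokines Ccl6 (6.37 ± 0.37, 82.9-fold) and Cxcl2 (3.48 ± 0.51, 11.2-fold), the cytokine Osm (4.04 ± 0.23) and the B cell survival factor Tnfsf13b (4.64 ± 0.19) were the largest, and Tgfb1 (-1.64 ± 0.18), Ccl9 (-1.66 ± 0.47) and the platelet chemokine Pf4 (-1.71 ± 0.38, to dim signal) were lower. Lipid mediator enzymes rose in 6 of 14 cases, with Alox5, the 5-lipoxygenase of leukotriene synthesis, at 5.49, 5.83 and 5.64 on the LSK arrays and 11.51, 11.40 and 11.65 on the granulocyte arrays (58.3-fold), its activating protein Alox5ap at 2.08 ± 0.25 and the cyclooxygenase Ptgs2 at 3.54 ± 0.50. The calcium-binding S100 and annexin families gave 8 higher and 3 lower of 16. S100a8 (4.41 ± 0.28) and S100a9 (4.11 ± 0.36), the calprotectin pair, S100a6 (5.63 ± 0.31) and Anxa2 (4.48 ± 0.21) rose, and S100a10 (-3.63 ± 0.37), the partner of annexin A2, S100a1 (-1.75 ± 0.21) and Anxa4 (-1.55 ± 0.25) fell.

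Interferon-response genes rose in 18 of 27 cases and fell in none, with a median of 1.14. Beyond the Schlafen genes, Ifitm6, an interferon-induced membrane protein, stood at 6.56, 5.92 and 5.92 on the LSK arrays and 12.43, 12.54 and 12.03 on the granulocyte arrays, 73.7-fold higher, and Slfn2 rose by 5.06 ± 0.26. Ifit3 rose by 2.98 ± 0.29 from a dim level, and Ifit1 by 1.14 ± 0.29, a call lost without LSK array 1 (1.00, adjusted p = 0.0215) or without granulocyte array 2 (0.82, adjusted p = 0.0243). Ifit2, of the same family, was at -0.65 and was not called. Of the list, 11 members were lowest in promyelocytes or myelocytes against both ends. Immediate early and stress genes gave 8 higher and 6 lower of 28, and 13 were lowest in between. Without LSK array 3 the balance turned, to 6 higher and 8 lower. The phosphatase Dusp1 (1.50 ± 0.35) was not called without LSK array 3 (0.90, adjusted p = 0.000996), nor was Ier2 (1.23 ± 0.28) without LSK array 3 (0.78, adjusted p = 0.00235). The orphan receptor Nr4a3 (-0.69 ± 0.38) was called lower without LSK array 3 (-1.31, adjusted p = 0.000391), as was its relative Nr4a1. Dusp1, Ier2 and Nr4a3 were chosen after their values were seen. Fosl2, an AP-1 factor, rose by 2.91 ± 0.28, and the orphan nuclear receptor Nr4a2 (-2.78 ± 0.36), the phosphatase Dusp2 (-2.99 ± 0.22) and the RNA-binding Zfp36l2 (-1.14 ± 0.17) fell. LSK array 3 was the lowest LSK array for the AP-1 genes Fosb, Jun and Fos. Fosb fell by 1.85 ± 0.58 (adjusted p = 0.0144), a call lost without LSK array 1 (-1.43, adjusted p = 0.0825) or without LSK array 2 (-1.46, adjusted p = 0.0695). Jun fell by 1.13 ± 0.26, a call lost without LSK array 1 (-0.84, adjusted p = 0.0119). Fos was at 0.79 and was called higher without LSK array 1 (1.03, adjusted p = 0.0456) or without LSK array 2 (1.14, adjusted p = 0.0182). 

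Genes of movement and traffic were called higher more often than lower. Of 28 actin and motility genes, 20 rose, with a median of 1.44. Coro1a, coronin, stood at 10.45, 10.18 and 10.19 on the LSK arrays and 12.30, 12.16 and 12.22 on the granulocyte arrays, 3.88-fold higher, and Wdr1 and Arpc1b, which act on actin turnover and branching, rose by 1.52 ± 0.16 and 1.19 ± 0.14. The calcium-binding Gca (3.86 ± 0.20), gelsolin Gsn (3.68 ± 0.24), the motor Myo1f (3.37 ± 0.15) and the capping protein Capg (2.84 ± 0.19) rose most. Cfl1, cofilin, was at 0.40 and was not called, and the GTPase Rhoh fell by 1.17 ± 0.20, a call lost without granulocyte array 3 (-0.99, adjusted p = 0.00123). Of 30 lysosome genes, 17 rose, with cathepsins Ctsh (3.18 ± 0.25), Ctsd (2.15 ± 0.26) and Ctse (1.95 ± 0.22) and the lysosomal regulators Tfeb (2.34 ± 0.16) and Tfe3 (2.21 ± 0.14), and the galactosidase Glb1 fell (-1.90 ± 0.20). Of 32 autophagy genes, 15 rose, among them Atg7 (2.79 ± 0.15), Atg3 (2.50 ± 0.16), Trp53inp1 (3.16 ± 0.27) and Trp53inp2 (3.52 ± 0.20), and Gabarapl1 (-2.73 ± 0.23) and Atg10 (-1.31 ± 0.18) fell. Of 34 genes of Rab and granule traffic, 16 rose, led by the syntaxin Stx11 (4.31 ± 0.20), the secretory Rab3d (3.42 ± 0.18) and the SNARE Snap23 (2.46 ± 0.20). Rab38, which serves melanosomes and related organelles, stood at 9.07, 8.56 and 9.58 on the LSK arrays and 4.46, 4.25 and 4.35 on the granulocyte arrays, the member called lower, and a second was lower without LSK array 2 or without granulocyte array 2.

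Transcription factors of the granulocytic lineage rose in 15 of 29 cases and fell in 2. Of the C/EBP factors, Cebpd stood at 5.17, 5.61 and 4.47 on the LSK arrays and 8.59, 8.60 and 8.12 on the granulocyte arrays, 10.2-fold higher (adjusted p = 7.24e-09), Cebpe, required for secondary granules, rose by 2.32 ± 0.20 and Cebpb by 2.14 ± 0.27. Cebpa, the factor of the granulocyte and monocyte progenitor, stood at 7.00, 7.80 and 7.10 on the LSK arrays and 7.41, 7.48 and 6.89 on the granulocyte arrays, with groups that overlapped, a difference of -0.04 ± 0.30 (adjusted p = 0.915) and a higher promyelocyte mean of 8.82. Mxd1, the Max partner that opposes Myc, stood at 7.22, 7.45 and 7.22 on the LSK arrays and 11.59, 11.52 and 11.91 on the granulocyte arrays, 20.7-fold higher, while Myc fell. Litaf (3.39 ± 0.18) and the retinoic acid receptor Rara (3.21 ± 0.20) rose, and Irf8, the factor of monocyte fate (-1.94 ± 0.29), and Vdr, the vitamin D receptor (-1.59 ± 0.13), fell. Growth factor and cytokine receptors rose in 17 of 28 cases. Csf3r, the receptor of G-CSF, stood at 8.57, 8.41 and 8.72 on the LSK arrays and 11.95, 11.65 and 11.93 on the granulocyte arrays, 9.67-fold higher. The chains of the GM-CSF receptor rose by 2.64 ± 0.25 (Csf2ra) and 2.79 ± 0.20 (Csf2rb), and Csf2rb2, the related interleukin 3 receptor chain, by 2.37 ± 0.23. Il13ra1 rose by 4.78 ± 0.34 from dim signal, and the interleukin 6 signal chain Il6st (-3.06 ± 0.29) and the interleukin 7 receptor Il7r (-1.49 ± 0.38, to dim signal) fell.

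None of the 34 stem cell transcription factors rose and 23 fell, with a median of -1.41. Meis1 stood at 10.49, 9.98 and 10.73 on the LSK arrays and 4.31, 4.60 and 4.82 on the granulocyte arrays, 56.6-fold lower, and Hlf, a factor of the most immature cells, at 9.51, 8.76 and 10.03 on the LSK arrays and 5.11, 5.39 and 5.44 on the granulocyte arrays, 17.3-fold lower. Sox4 (-3.99 ± 0.20) and, to dim signal, Mecom (-1.19 ± 0.22) fell, the latter call lost without LSK array 1 (-0.98, adjusted p = 0.00241). Of 27 surface genes shared by stem and endothelial cells, 22 fell and none rose. Genes of other lineages were called lower in part. Of 19 lymphoid genes, 8 were lower. Dntt stood at 9.01, 9.35 and 9.52 on the LSK arrays and 3.37, 3.60 and 3.56 on the granulocyte arrays, Igll1, the surrogate light chain, fell (-1.76 ± 0.31), and Blnk, an adaptor of the B cell receptor, fell to dim signal (-1.56 ± 0.23). Rag1 was at -0.77, called without LSK array 1 (-1.13, adjusted p = 0.000974). Notch1 was the member that rose (1.30 ± 0.20). Of 8 Gimap GTPases of lymphocytes, 5 fell, with Gimap6 at 10.41, 9.84 and 10.00 on the LSK arrays and 4.95, 5.50 and 5.65 on the granulocyte arrays, 26.4-fold lower, and Gimap1 at -3.01 ± 0.30. Of 19 megakaryocyte and erythroid genes, 8 fell, led by the carbonic anhydrases Car2 (-4.05 ± 0.26, 16.6-fold) and Car1 (-2.50 ± 0.49), the Gata1 cofactor Zfpm1 (-2.76 ± 0.25) and Gfi1b (-1.76 ± 0.21). Gata1 was at -0.93 and was called without LSK array 3 (-1.06, adjusted p = 0.0209). Nfe2 rose by 1.32 ± 0.20 beside Slc4a1, so 1 increase was called without granulocyte array 3.

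MHC class II presentation fell in 6 of 11 cases. H2-Ob, a chain of the H2-O modulator, stood at 8.51, 8.23 and 8.62 on the LSK arrays and 4.73, 5.00 and 4.99 on the granulocyte arrays, 11.6-fold lower, and H2-DMa, which loads peptide, fell by 2.82 ± 0.25. The class II chain H2-Ab1 (-2.64 ± 0.60), Cd74, the invariant chain (-2.07 ± 0.60), and H2-Aa (-1.96 ± 0.60) fell, the last call lost without granulocyte array 1 (-1.69, adjusted p = 0.0573). Their granulocyte arrays were unequal, with Cd74 at 5.51, 6.63 and 6.73. The costimulatory ligands Cd80 (4.54 ± 0.26, from dim signal) and Cd86 (1.26 ± 0.17) rose. The study had named 14 predicted miRNA targets as higher in LSK cells than in promyelocytes, a list chosen on these samples and so not independent evidence, and a comparison other than the one made here. Of these, 12 were lower in granulocytes, among them Hlf, Mycn (-2.89 ± 0.27, 7.40-fold), Klf12 (-2.07 ± 0.24, to dim signal) and the DNA end-binding Xrcc5 (-3.92 ± 0.22, to dim signal). Trp53inp1, a stress-induced regulator of autophagy, stood at 8.02, 7.58 and 8.09 on the LSK arrays and 11.20, 11.01 and 10.94 on the granulocyte arrays, 8.91-fold higher, and its promyelocyte mean of 5.82 was under its mean at either end.

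The cell cycle fell nearly whole. Of 44 replication genes, 40 were lower and none higher (16.5% and 9.59% of all genes were), with a median of -2.60. Of 46 mitosis genes, 44 were lower, with a median of -2.65. Mcm6, a subunit of the replicative helicase, stood at 10.65, 10.35 and 10.45 on the LSK arrays and 5.83, 6.32 and 6.38 on the granulocyte arrays, 19.8-fold lower (adjusted p = 1.50e-10), and Mcm2 (-3.74 ± 0.23), Mcm3 (-4.32 ± 0.28), Mcm4 (-2.72 ± 0.21) and Mcm5 (-3.28 ± 0.20) fell too. Prim1, the primase (-4.68 ± 0.30), and Tipin, of the fork protection complex (-4.18 ± 0.37), fell to dim signal, and Pola1, the polymerase whose promoter is shown, fell (-3.91 ± 0.23). Cdk1, the mitotic kinase, stood at 8.46, 8.67 and 8.01 on the LSK arrays and 4.80, 6.21 and 5.10 on the granulocyte arrays, 8.05-fold lower, and its cyclins Ccnb2 and Ccna2 fell (-3.08 ± 0.22 and -3.55 ± 0.33). Top2a, topoisomerase II, stood at 10.48, 10.11 and 9.94 on the LSK arrays and 5.98, 7.16 and 6.39 on the granulocyte arrays, 12.7-fold lower. Together with Top2a, the kinesin Kif11 (-3.61 ± 0.33), the condensin Ncapd2 (-3.73 ± 0.24) and the checkpoint kinase Bub1 (-3.78 ± 0.36, to dim signal) fell most among mitosis genes. Groups did not overlap for any gene of this paragraph. The sets left LSK levels at different steps. The median step from promyelocytes to myelocytes was -1.54 for the replication list and -0.26 for the mitosis list, and from myelocytes to granulocytes it was -1.28 and -2.66.

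G1 regulators moved in both directions. Of 29 G1 cyclins, CDK inhibitors and E2F genes, 17 fell and 6 rose. Cdk4 stood at 11.45, 11.11 and 11.11 on the LSK arrays and 6.04, 6.58 and 5.80 on the granulocyte arrays, 33.9-fold lower, and Cdk6 at 11.03, 10.99 and 10.91 on the LSK arrays and 6.91, 7.06 and 7.14 on the granulocyte arrays, 15.4-fold lower. Their cyclins Ccnd1 (-1.58 ± 0.17) and Ccnd2 (-2.94 ± 0.22) fell while Ccnd3 rose (1.50 ± 0.19), and Ccne1 fell by 1.27 ± 0.22. The inhibitors Cdkn2d, p19 (2.56 ± 0.16), and Cdkn1b, p27 (1.36 ± 0.13), the retinoblastoma gene Rb1 (1.21 ± 0.18), Ccng2 (1.27 ± 0.18) and E2f2 (2.62 ± 0.20) rose. E2f6 (-3.18 ± 0.18) and Tfdp2 (-3.04 ± 0.24) fell, as did the inhibitor Cdkn2c (-1.32 ± 0.25) and the retinoblastoma-like Rbl1 (-2.66 ± 0.23), both chosen after their values were seen. DNA repair genes fell in 27 of 30 cases, with the damage kinase Atm (-4.17 ± 0.20, to dim signal), the polymerase Parp1 (-3.73 ± 0.23) and the endonuclease Apex1 (-3.60 ± 0.21) among the largest.

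Genes that build ribosomes and ribosomal proteins fell in most cases. Of 38 ribosome biogenesis genes, 34 were lower, with a median of -2.94. Npm1, nucleophosmin, stood at 10.86, 10.45 and 10.36 on the LSK arrays and 6.18, 6.52 and 5.49 on the granulocyte arrays, 22.5-fold lower (adjusted p = 1.80e-10). Ncl, nucleolin (-2.85 ± 0.16), Fbl, fibrillarin (-3.84 ± 0.17), and Wdr43 (-4.71 ± 0.19) fell, and Dkc1, dyskerin (-4.91 ± 0.19), and Gnl3, nucleostemin (-4.63 ± 0.18), fell to dim signal, as Nop58 did. Of 54 measured genes of cytosolic ribosomal proteins, 48 were lower, with a list median of -2.02. Rps20 stood at 11.39, 11.29 and 11.45 on the LSK arrays and 7.54, 7.81 and 6.86 on the granulocyte arrays, 15.7-fold lower, Rpl10a fell by 3.82 ± 0.18, and Rpl4, Rpl5 and Rpl6 fell (-2.47 ± 0.13, -2.59 ± 0.14 and -2.55 ± 0.20). Many such genes have near-identical copies in the genome that can share probes, so their single values are uncertain. Mitochondrial ribosomal proteins fell in 41 of 75 cases, with a list median of -1.07, Mrps5 at -2.88 ± 0.16, Mrpl42 at -3.12 ± 0.22 (to dim signal), and 1 rise, Mrpl33 (2.33 ± 0.29).

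Other machinery of synthesis followed. Purine and pyrimidine synthesis fell in 17 of 23 cases (and rose in 1 without LSK array 2), with Atic, the last enzyme of purine synthesis, at 10.01, 9.82 and 9.75 on the LSK arrays and 5.43, 5.55 and 5.31 on the granulocyte arrays, 21.5-fold lower, and Prps1, which makes the ribose donor, at -4.19 ± 0.17. Serine and one-carbon genes fell in 10 of 16, with Mthfd1 at -4.00 ± 0.17 and Shmt2 at -3.93 ± 0.23 (to dim signal). Aminoacyl-tRNA synthetases fell in 22 of 30, led by Iars (-4.30 ± 0.17) and Farsb (-3.92 ± 0.15). Chaperonins and heat shock proteins fell in 18 of 21, and the mitochondrial chaperone Hspa9 stood at 10.66, 10.49 and 10.45 on the LSK arrays and 5.90, 6.07 and 5.73 on the granulocyte arrays, 24.9-fold lower. Splicing factors fell in 28 of 39, with Snrpa1 at -3.54 ± 0.19 and Ptbp1 at -3.09 ± 0.16. Of 37 proteasome subunits, 11 fell, and the list median of -0.84 was under a fold of 2. Without LSK array 3, 17 subunits were called. Without granulocyte array 3, Psma4 (-0.995), Psma7 (-0.95), Psmb2 (-0.99) and Psmc4 (-0.98) lost their calls and Psmd11 (-1.02) was called. Psmd7 fell most (-2.61 ± 0.20), and Psma1 (-0.42) and Psma2 (-0.28) were not called. Of 9 polyamine genes, 4 rose and 3 fell, with the synthesis enzymes Srm (-4.37 ± 0.19, 20.6-fold) and Odc1 (-2.99 ± 0.23) lower and Sat1, which drives polyamine export and breakdown, higher (3.06 ± 0.23). Without LSK array 3, 3 rose and 4 fell.

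Energy metabolism moved in parts. Oxidative phosphorylation had 23 of 72 subunits lower (16.5% of all genes were), with a median of -0.55. The calls lost without granulocyte array 3 included Cox5a (-0.73), Cox7b (-0.88), Ndufb6 (-0.66) and Ndufv2 (-0.90). Atp5g2, a subunit of ATP synthase, fell by 2.71 ± 0.20 and Ndufa1 of complex I rose by 1.35 ± 0.22. Of 21 citric acid cycle genes, 10 were lower. Idh2, the mitochondrial isocitrate dehydrogenase, stood at 9.88, 9.81 and 9.94 on the LSK arrays and 5.44, 5.79 and 5.76 on the granulocyte arrays, 18.5-fold lower, and Idh3a, Suclg2 and Fh1 fell (-3.98 ± 0.21, -3.99 ± 0.19 and -3.50 ± 0.20). Glucose uptake and glycolysis, in contrast, had 10 of 20 members higher and 4 lower. The lactate exporter Slc16a3 stood at 6.38, 6.87 and 6.66 on the LSK arrays and 11.13, 11.01 and 10.97 on the granulocyte arrays, 21.1-fold higher, and the glucose transporters Slc2a3 (3.77 ± 0.23), Slc2a6 (4.00 ± 0.30) and Slc2a1 (1.38 ± 0.16) and the regulator Pfkfb4 (4.33 ± 0.15) rose. The other lactate transporter, Slc16a1 (-2.58 ± 0.25), fell with the phosphofructokinases Pfkm (-2.39 ± 0.20) and Pfkl (-1.51 ± 0.18) and with Tpi1 (-1.05 ± 0.23), whose call was lost without LSK array 1 (-0.85, adjusted p = 0.00958) or without granulocyte array 3 (-0.95, adjusted p = 0.00843). Hk1, the hexokinase, was at -0.84 and was not called. Glycogen genes rose in 7 of 16 cases, with the liver-type phosphorylase Pygl at 8.28, 8.17 and 8.19 on the LSK arrays and 12.00, 11.97 and 12.08 on the granulocyte arrays, 14.0-fold higher, the synthase Gys1 at 1.79 ± 0.18 and Ugp2, which makes the glucose donor, at 2.26 ± 0.15. The lysosomal glucosidase Gaa (-2.62 ± 0.19), the brain-type phosphorylase Pygb (-1.93 ± 0.16) and the phosphorylase kinase subunit Phka2 (-1.07 ± 0.16) fell, the last call being lost without LSK array 1 (-0.97, adjusted p = 0.000388).

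Cholesterol genes gave 4 higher and 4 lower of 23, 17.4% each, against 9.59% higher and 16.5% lower of all genes. Their median of -0.04 was 0.18 with arrays centred on their 75th percentile. Sqle, squalene epoxidase (-1.68 ± 0.17), and Dhcr7 (-1.65 ± 0.18) fell, while the sterol oxidase Msmo1 rose by 2.18 ± 0.21 and Sc5d by 1.45 ± 0.13. Iron, heme and antioxidant genes gave 12 lower and 5 higher of 34. The iron exporter Slc40a1, ferroportin, stood at 5.83, 5.76 and 5.39 on the LSK arrays and 10.91, 10.91 and 11.12 on the granulocyte arrays, 40.0-fold higher. The heme oxygenase Hmox1 (3.12 ± 0.28), the glutathione reductase Gsr (2.52 ± 0.23), Ftl1 (1.86 ± 0.25) and Ppox (1.76 ± 0.22) rose, whereas the transferrin receptor Tfrc (-1.53 ± 0.37), Prdx2 (-3.04 ± 0.30) and Gclc (-2.73 ± 0.22) fell.

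In the nucleus, chromatin regulators fell in 19 of 33 cases. Hells, a remodeller needed for DNA methylation, fell to dim signal (-4.42 ± 0.30). Uhrf1, which maintains DNA methylation (-3.66 ± 0.27), the histone-binding Rbbp7 (-3.95 ± 0.21) and the heterochromatin protein Cbx5 (-3.74 ± 0.27) fell as well. Ezh2, the methyltransferase of Polycomb complex 2, stood at 9.71, 9.50 and 9.32 on the LSK arrays and 6.23, 6.69 and 6.37 on the granulocyte arrays, 8.47-fold lower, whereas its paralog Ezh1 was at 0.89 ± 0.14, under a fold of 2. The demethylase Kdm6b rose (1.45 ± 0.23), as did Kat2b (1.06 ± 0.18), a call lost without LSK array 1 (0.98, adjusted p = 0.00109) or without granulocyte array 3 (0.91, adjusted p = 0.00116). Nuclear envelope and lamina genes gave 5 higher and 13 lower of 27. Lbr, the lamin B receptor on which the lobed nucleus of granulocytes depends, stood at 10.57, 10.22 and 9.58 on the LSK arrays and 11.87, 11.87 and 12.14 on the granulocyte arrays, 3.57-fold higher. The linker proteins Syne1 (4.16 ± 0.19, 17.9-fold), Sun2 (1.75 ± 0.17) and Syne2 (1.26 ± 0.20) rose, as did Tor1aip1 (1.21 ± 0.16). Nuclear pore genes fell, with Nup205 at -3.85 ± 0.20 and Nup210 at -3.57 ± 0.13, and the lamin Lmnb1 (0.71) was not called. Of 25 genes of the miRNA pathway, 7 fell and 3 rose. Drosha, the nuclear RNase that cuts primary miRNAs, stood at 8.09, 7.92 and 8.19 on the LSK arrays and 4.97, 4.82 and 5.36 on the granulocyte arrays, 8.10-fold lower, and its partner Dgcr8 (-2.01 ± 0.20) and the exporter Xpo5 (-1.46 ± 0.18) fell. The Argonaute genes split, with Ago1 lower (-2.21 ± 0.19) and Ago4 higher (1.65 ± 0.17), and Tnrc6b (1.36 ± 0.14) and Mov10 (2.06 ± 0.18) rose.

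Survival and death genes gave 9 higher (40.9%) and 4 lower (18.2%) of 22 in the Bcl2 and caspase list. Of all genes, 9.59% were higher and 16.5% lower. Bcl2, an inhibitor of apoptosis, stood at 8.67, 8.51 and 8.43 on the LSK arrays and 5.64, 5.62 and 5.53 on the granulocyte arrays, 7.67-fold lower (adjusted p = 5.72e-11). Mcl1, another inhibitor on which neutrophils depend, stood at 11.21, 10.97 and 10.39 on the LSK arrays and 12.05, 12.10 and 12.32 on the granulocyte arrays, 2.46-fold higher. The apoptosome genes Apaf1 (1.63 ± 0.16) and Casp9 (1.75 ± 0.17) and the BH3-only Pmaip1 (1.81 ± 0.25) rose. The caspases Casp6 (-1.55 ± 0.28), Casp8 (-1.12 ± 0.20) and Casp2 (-1.17 ± 0.20) fell, the last call being lost without LSK array 1 (-0.97, adjusted p = 0.00119). With arrays centred on their 75th percentile, 2 members of the list were lower.

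The genes that differed between the ends changed at different steps. Of the 1912 genes higher in granulocytes, 1393 (72.9%) had their largest step from promyelocytes to myelocytes, 380 (19.9%) from myelocytes to granulocytes and 139 (7.27%) from LSK cells to promyelocytes, and 786 (41.1%) moved upward at every step. Of the 3293 lower genes, 1919 (58.3%) had their largest step from promyelocytes to myelocytes, 965 (29.3%) in the last and 409 (12.4%) in the first, and 1163 (35.3%) moved downward at every step. Steps were read from group means without a test. The mean levels of whole lists moved at different steps too. Secondary granule genes averaged 6.91 to 7.63 on promyelocyte arrays and 11.82 to 11.95 on myelocyte arrays, then 11.67 to 11.90 in granulocytes. Ribosome biogenesis genes averaged 8.32 to 8.67 in LSK cells, 8.58 to 9.01 in promyelocytes, 6.42 to 6.49 in myelocytes and 5.52 to 5.77 in granulocytes. Mitosis genes stayed at 7.50 to 8.54 on myelocyte arrays, against 7.90 to 8.35 in LSK cells, and reached 5.35 to 6.03 in granulocytes.

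**Figure D4:**
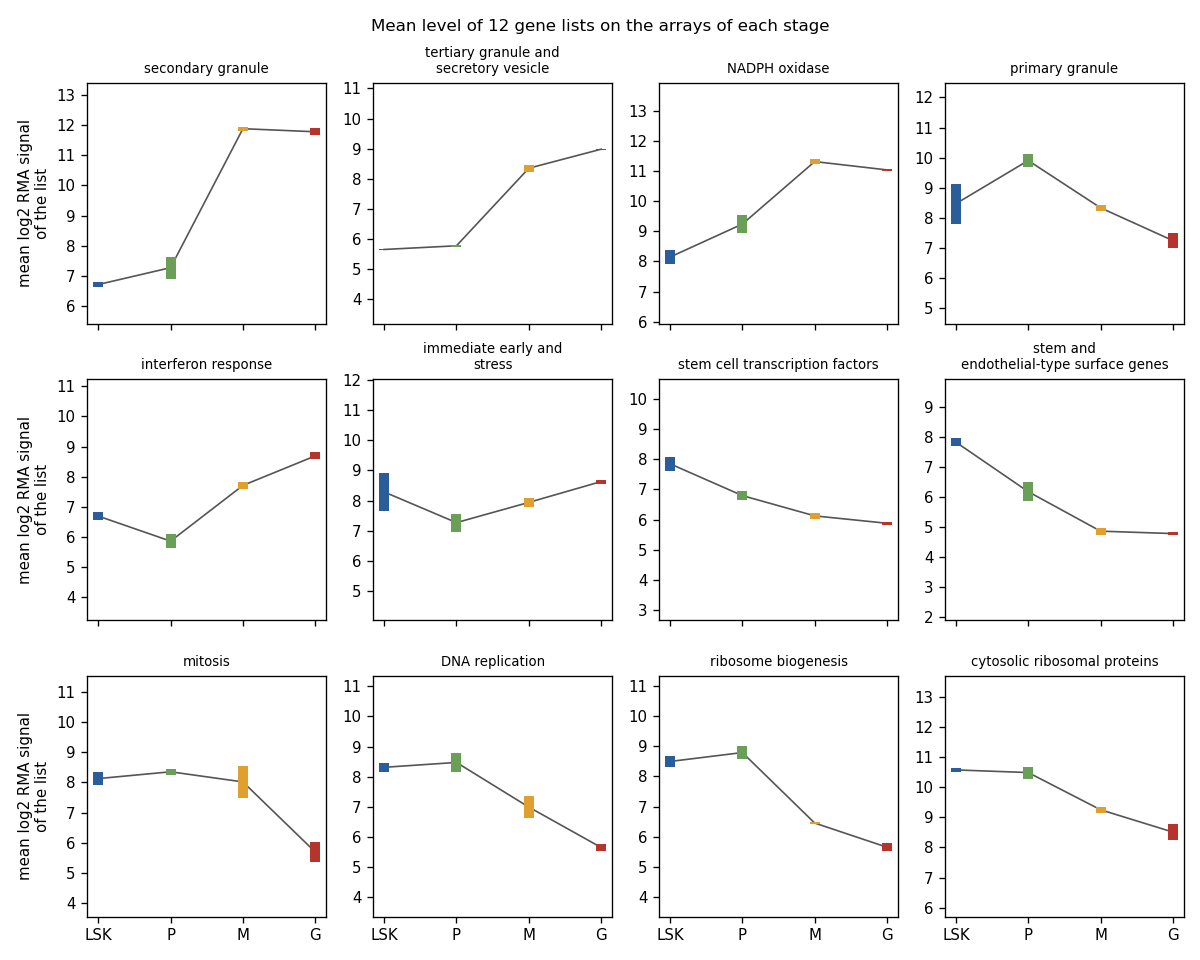
Each panel gives the mean log2 RMA signal over the measured members of a list in LSK cells, promyelocytes (P), myelocytes (M) and granulocytes (G), with bars from the lowest to the highest of 3 arrays and a line through their midpoints; every panel spans the same number of log2 units. Secondary granule genes step up at the myelocyte, mitosis genes step down at the granulocyte, and interferon and immediate early genes dip at the promyelocyte.

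Comparison of the ends alone misses genes that moved and came back. In all, 231 genes (1.16%) were highest in promyelocytes or myelocytes, called against both LSK cells and granulocytes, and 160 (0.803%) were lowest. Of the highest, 140 were not called between the ends, 59 were lower and 32 higher in granulocytes. Of the lowest, 84 were not called between the ends, 74 were higher and 2 lower. The largest excess was in Prss34, a serine protease of basophils, at 6.10, 6.54 and 6.36 in LSK cells, 11.16, 6.67 and 9.77 in promyelocytes, 12.68, 11.91 and 10.59 in myelocytes and 6.06, 6.84 and 6.51 in granulocytes, so that the ends overlapped. The basophil genes Fcer1a, Mcpt8 and Ms4a2 ran the same course, with myelocyte means of 8.38, 10.94 and 7.94 and granulocyte means of 3.39, 5.87 and 3.52. Of 10 basophil and mast cell markers, 5 were highest in between, and in granulocytes the histidine decarboxylase Hdc was higher than in LSK cells (4.26 ± 0.42) and the carboxypeptidase Cpa3 lower (-2.73 ± 0.56, to dim signal). Epx, eosinophil peroxidase, stood at 9.81, 5.06 and 10.19 on promyelocyte arrays and at 5.30 or less on every other array, and 4 of 7 eosinophil markers were highest in between. Between the ends, 1 eosinophil marker was called, the eotaxin receptor Ccr3 (1.51 ± 0.28) from dim signal, and Ear6 was called without promyelocyte array 2 (1.24, adjusted p = 0.00183). Fcnb, ficolin B, a gene of granulocytic cells, was highest in between too, at 6.53 in promyelocytes, 10.07 in myelocytes and 6.15 in granulocytes. Its promyelocyte mean was 0.57 above that of LSK cells (adjusted p = 0.395), whereas Mcpt8 and Ms4a2 had already risen there by 3.30 and 3.47. Its myelocyte arrays stood at 9.94, 10.10 and 10.18. Of 12 monocyte and macrophage markers, 5 were highest in between as well. The mean level of that list was 5.31 to 6.13 on LSK, 6.91 to 7.36 on promyelocyte, 6.08 to 7.32 on myelocyte and 5.85 to 6.58 on granulocyte arrays. The part of basophils, eosinophils and monocytes in the intermediate sorts was not tested.

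The 6 genes with the largest deficit in between included 3 that were called higher in granulocytes and 3 that were not called. Rtp4, an interferon-induced gene, stood at 7.67, 7.89 and 8.63 in LSK cells, 4.15, 5.43 and 4.53 in promyelocytes and 8.89, 9.72 and 9.38 in granulocytes, a difference between the ends of 1.27 ± 0.32. The orphan nuclear receptor Nr4a1 averaged 10.45, 6.19 and 9.35, with a difference between the ends that was called without LSK array 3 (-1.75, adjusted p = 0.0016) or without promyelocyte array 3 (-1.10, adjusted p = 0.0407) or without granulocyte array 3 (-1.39, adjusted p = 0.0452). The glycosyltransferase Gcnt2 averaged 10.21, 6.90 and 9.88 (-0.33 ± 0.24, adjusted p = 0.252), and Tspan13 10.80, 8.28 and 10.28, with a lower mean of 7.39 in myelocytes. Wfdc17, a protease inhibitor-like protein, and the water and glycerol channel Aqp9 ended above LSK cells, at 1.17 ± 0.27 and 2.85 ± 0.44, the former not called without granulocyte array 1 (0.85, adjusted p = 0.0128).

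**Figure D5:**
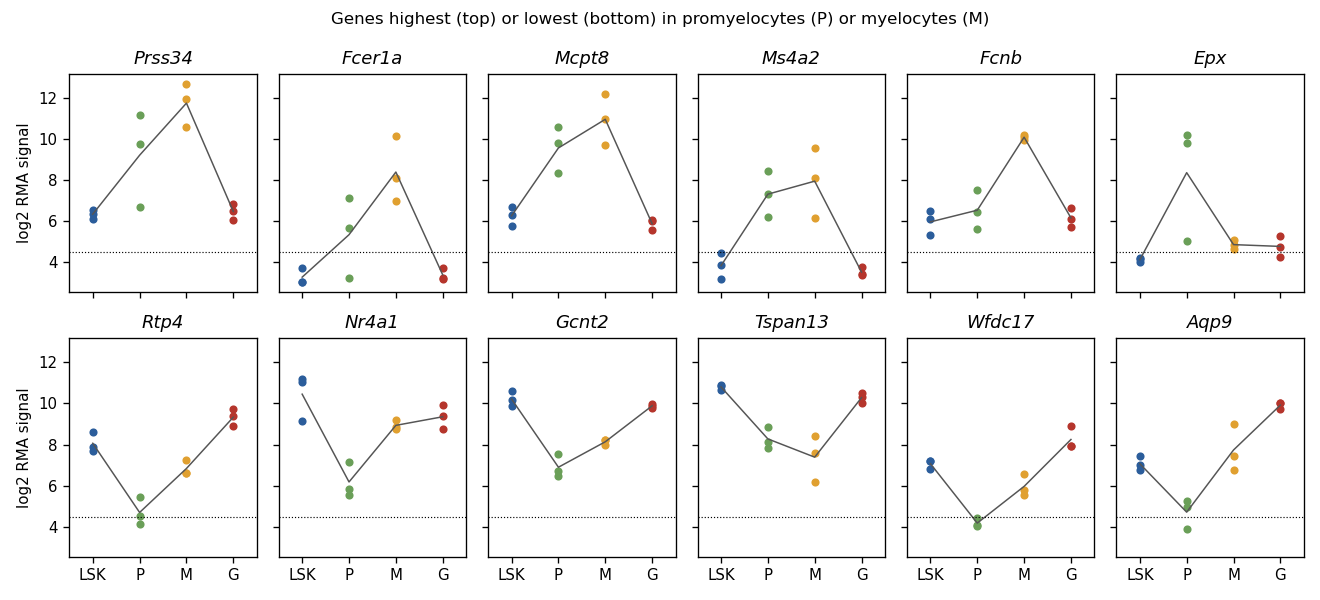
Dots are single arrays and lines join group means, in log2 RMA signal, for the 6 genes with the largest excess (top) and the 6 with the largest deficit (bottom) of promyelocytes (P) or myelocytes (M) over both LSK cells and granulocytes (G), with a dotted line at the dim level of 4.51. Basophil genes peak in the middle with wide spread between arrays, Epx is high on 2 of 3 promyelocyte arrays, and the genes below dip in the middle.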

How the data were processed

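RNA of LSK cells, promyelocytes, myelocytes and granulocytes, 3 arrays each, was hybridised to Mouse Gene 1.0 ST arrays of Affymetrix. The authors deposited log2 values that they had made with RMA, which corrects background, normalises quantiles across arrays and summarises probes. The software version is not given in the sources used here. Scanner files were not analysed here, and counting depth does not apply to arrays, so that their number limits the precision. Rows were named from GEO's platform annotation, in which 21640 of 34760 rows had 1 symbol, 1321 several and 11799 none, and the brightest row stood for each of 954 genes with several rows. Rpl21 and Zkscan17 had rows called in opposite directions.

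Means of the 4 groups were fitted to all 12 arrays in 1 model with limma 3.58.1 (R 4.3.3), and p-values were adjusted over 19937 genes by Benjamini-Hochberg, with 8 residual and 7.02 prior degrees of freedom. The scripts were tested on simulated data. Members and gene lists were chosen with earlier results of these data known. Genes named are the 15 largest increases and decreases, per list the 4 largest differences, the first 4 written and members called against the majority, the sort antigens, and the 6 largest excesses and deficits in between. Promoter windows came from RefSeq (GRCm38.p6). Alternatives covered centring, normalisation, rows, dim genes, thresholds, the spread model, replicate pairing and left-out arrays.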

Additional observations from a re-analysis of the deposited data

How the results depend on the processing

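The counts of 1912 genes higher and 3293 lower moved by less than 1.5 times under median centring (1899 and 3323), 75th percentile centring (2440 and 2781), quantile (2031 and 3152) and cyclic loess normalisation (1911 and 3318), without genes dim in all groups (1894 and 3268), with the mean of a gene's rows (1905 and 3267) and with the 6 arrays alone (1915 and 3299). Without a fold minimum they were 5300 and 5038, and 994 genes were highest and 689 lowest in between, because the fold excludes small differences. Leaving out 1 array at a time gave 1877 to 1950 higher, 3187 to 3371 lower, 191 to 293 highest and 147 to 172 lowest in between. The labels do not say whether the replicate numbers pair the arrays. Deviations from the group mean correlated at -0.06, -0.01 and 0.08 between same-numbered arrays and at -0.11 to 0.11 between the others. So few arrays cannot decide it. With the replicate number as a block the counts were 1912, 3300, 236 and 161. With the row of largest variance standing for a gene, 3 called genes turned sign, since another row then stood for them. They were Rpl21 (-1.24 to 3.94), Tax1bp3 (1.16 to -0.15) and Zkscan17 (-1.76 to 1.64). Among the other genes named in the report, signs turned only for those not called between the ends, where the cause was not tested. Cebpa was at 0.17 with 75th percentile centring and 0.11 with quantile normalisation, and at -0.19 to 0.21 with an array left out. Fcer1a was at -0.10 with quantile normalisation and at -0.059 to 0.34 with an array left out, which also gave -0.13 to 0.46 for Fcnb, -0.63 to 0.0077 for Ms4a2 and -0.054 to 0.34 for Prss34. With 75th percentile centring, 8 of 34 iron, heme and antioxidant genes and 5 of 12 monocyte and macrophage markers were higher. Groups of 3 arrays limit the precision of every value, and a gene at or under 4.51 has no level that can be set against another.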
